A study of Homo sapiens with 18 samples.

Results

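The pseudogenes described here are the annotated copies of 4 small ribosomal subunit genes, RPS26, RPS27, RPS28 and RPS29. They were taken by symbol: every gene whose GENCODE symbol is RPS26, RPS27, RPS28 or RPS29 followed by P and a number. This gave 103 of the 58444 genes found in all count files, with 36 pseudogenes of RPS26, 30 of RPS27, 5 of RPS28 and 32 of RPS29. Pseudogenes of RPS27A, a different gene, are not matched by these symbols. The values are read counts in HCC827 and H1975, established human lung adenocarcinoma lines with mutant EGFR, with no treatment. Each line gave 3 RNA samples from independent cultures, and each RNA sample was sequenced with PacBio Iso-Seq, Oxford Nanopore (ONT) cDNA and Illumina short reads, which makes 18 libraries in 6 groups of 3. ONT and Illumina libraries started from poly(A) mRNA and PacBio libraries from total RNA with a size selection step (2 kb). The platforms thus differ in starting material and preparation as well as in the sequencer. Each line stands for 1 cell line and not for its tumour type.

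RPS26, RPS27, RPS28 and RPS29 encode small proteins of the small ribosomal subunit, the part of the ribosome that binds mRNA and decodes it. Such short, abundant mRNAs have been copied many times into the human genome by reverse transcription, and each copy, a processed pseudogene, lacks introns and carries an accumulating set of base changes. A copy that is still close in sequence to its parent can be matched by reads of the parent's mRNA as well as by reads of its own transcripts. Counts of near-identical copies are therefore uncertain, and so are the parent's counts.

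Of the 103 pseudogenes, 101 are annotated as processed, they lie on 22 chromosomes, and 56 lie within the bounds of another gene (29 with a gene on the same strand and 30 with a gene on the opposite strand). Exons of another gene overlap 2 of them, RPS26P19 and RPS28P5. The length of the parent's coding sequence was kept by 41, and 25 kept an open frame over that whole length. Identity to the parent's coding sequence had a median of 86.6% and ranged from 40.9% to 100%, with medians of 90.6% for copies of RPS26, 92.2% for RPS27, 74.6% for RPS28 and 83.5% for RPS29. It is the share of matching bases over the whole end-to-end alignment, so missing or extra bases lower it as base changes do. The lowest, RPS29P32, has 78 bases, with 8 mismatches and 93 gap bases.

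The sequences of the copies with the highest counts, and of the parents they are set against, show how few bases separate them. All are the sense strand of GRCh38, capitals mark bases that differ from the parent's coding sequence, and the parent lines are spliced coding sequences. RPS28P7 (chr11:82689559-82689768, plus strand) and RPS28P4 (chr2:231256097-231256306, plus strand) are copies of RPS28 (chr19:8321531-8322075, plus strand).
RPS28P7: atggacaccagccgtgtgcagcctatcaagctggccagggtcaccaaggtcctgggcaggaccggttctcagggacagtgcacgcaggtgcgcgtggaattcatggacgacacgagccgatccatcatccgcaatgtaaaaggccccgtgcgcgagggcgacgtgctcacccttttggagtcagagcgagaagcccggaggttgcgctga
RPS28P4: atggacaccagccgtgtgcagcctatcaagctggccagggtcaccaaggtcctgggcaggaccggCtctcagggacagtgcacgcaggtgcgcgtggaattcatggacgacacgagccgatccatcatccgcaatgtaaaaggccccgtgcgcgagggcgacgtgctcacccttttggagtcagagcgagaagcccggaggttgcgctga
RPS28: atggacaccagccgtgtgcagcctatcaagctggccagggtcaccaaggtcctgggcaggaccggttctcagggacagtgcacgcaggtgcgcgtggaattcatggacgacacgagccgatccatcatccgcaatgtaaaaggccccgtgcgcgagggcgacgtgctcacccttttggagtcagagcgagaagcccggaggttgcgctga
RPS28P7 has no base change over its 210 bases, and RPS28P4 has 1, T66C, counted from the first base of the coding sequence with the parent's base first.

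RPS27P3 (chr12:3211663-3211917, minus strand), RPS27P4 (chr3:40761545-40761799, plus strand) and RPS27P8 (chr1:202471864-202472117, minus strand) are the copies of RPS27 (chr1:153990797-153992093, plus strand) with the most counts.
RPS27P3: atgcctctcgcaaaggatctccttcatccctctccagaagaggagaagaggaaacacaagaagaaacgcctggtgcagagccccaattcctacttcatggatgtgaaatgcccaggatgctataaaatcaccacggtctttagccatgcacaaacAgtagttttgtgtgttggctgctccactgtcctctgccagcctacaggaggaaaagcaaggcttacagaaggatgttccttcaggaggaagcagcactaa
RPS27P4: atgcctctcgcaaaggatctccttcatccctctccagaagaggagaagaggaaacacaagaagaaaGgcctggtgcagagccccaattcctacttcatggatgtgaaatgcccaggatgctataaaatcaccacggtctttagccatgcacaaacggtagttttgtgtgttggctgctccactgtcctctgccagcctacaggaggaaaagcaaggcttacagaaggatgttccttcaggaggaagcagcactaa
RPS27P8: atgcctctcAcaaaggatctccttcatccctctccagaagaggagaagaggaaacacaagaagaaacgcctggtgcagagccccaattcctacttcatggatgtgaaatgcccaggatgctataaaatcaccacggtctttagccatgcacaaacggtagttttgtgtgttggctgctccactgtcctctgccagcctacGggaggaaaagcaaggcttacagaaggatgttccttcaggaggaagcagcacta
RPS27: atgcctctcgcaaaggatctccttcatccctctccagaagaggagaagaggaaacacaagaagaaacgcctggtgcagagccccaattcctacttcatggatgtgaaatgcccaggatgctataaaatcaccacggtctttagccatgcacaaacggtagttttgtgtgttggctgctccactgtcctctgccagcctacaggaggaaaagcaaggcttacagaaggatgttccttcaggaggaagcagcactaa
RPS27P3 differs from the coding sequence by G156A and RPS27P4 by C67G, while RPS27P8 has G10A and A201G and lacks 1 base.

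RPS29P3 (chr3:196536532-196536702, plus strand) is the copy of RPS29 (chr14:49583667-49586346, minus strand) closest to its parent, at 97.1% identity.
RPS29P3: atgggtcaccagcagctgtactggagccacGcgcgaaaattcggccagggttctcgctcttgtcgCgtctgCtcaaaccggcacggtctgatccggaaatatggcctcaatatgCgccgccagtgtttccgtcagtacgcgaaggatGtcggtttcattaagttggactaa
RPS29: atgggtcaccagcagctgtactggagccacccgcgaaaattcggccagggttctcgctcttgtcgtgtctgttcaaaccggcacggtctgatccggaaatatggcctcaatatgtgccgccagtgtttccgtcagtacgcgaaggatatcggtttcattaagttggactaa
Its 5 base changes, C31G, T66C, T72C, T115C and A148G, leave none of its 97 windows of 75 bases, the length of an Illumina read, in the parent's mRNA. In contrast all 136 such windows of RPS28P7 and 70 of the 136 of RPS28P4 occur in RPS28 mRNA. Of the RPS26 copies, RPS26P47 (chr13:100539901-100540248, minus strand) has 2 changes, G102C and C297T, over 348 bases, and 147 of its 274 windows occur in RPS26 mRNA.

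Gene totals per library were 37795 to 54339 counts in PacBio, 81467393 to 116497461 in ONT and 33362018 to 40200473 in Illumina, except 10020699 in Illumina HCC827 replicate 2. In PacBio, HCC827 replicates 1 and 2 and H1975 replicates 2 and 3 were closer than counting error alone gives (mean chi-square 0.671 and 0.539 over genes), against 1.30 to 4.56 for the other pairs of a line. The epithelial markers EPCAM, KRT8, KRT18, KRT19 and CDH1 were present in all 18 libraries, while the blood cell markers PTPRC, CD3E and LYZ reached at most 0.274 CPM (counts per 1e6 gene counts) in any library.

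Pseudogene counts took up 1.74 ± 0.15% of all gene counts in ONT HCC827 libraries and 1.64 ± 0.0127% in ONT H1975 libraries (mean ± SD, n = 3 each). In Illumina they took up 0.0802 ± 0.0045% in HCC827 and 0.0553 ± 0.00058% in H1975. Counts were found for 78 of the 103 pseudogenes in ONT and 63 in Illumina, and 21 had 0 counts in all 18 libraries. A mean of 10 or more counts per library was reached by 54 in ONT and 21 in Illumina, and a mean of 1000 or more by 28 in ONT and 3 in Illumina. These 3 were RPS28P7, RPS27P3 and RPS27P4, named here from that count.

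**Figure D1:**
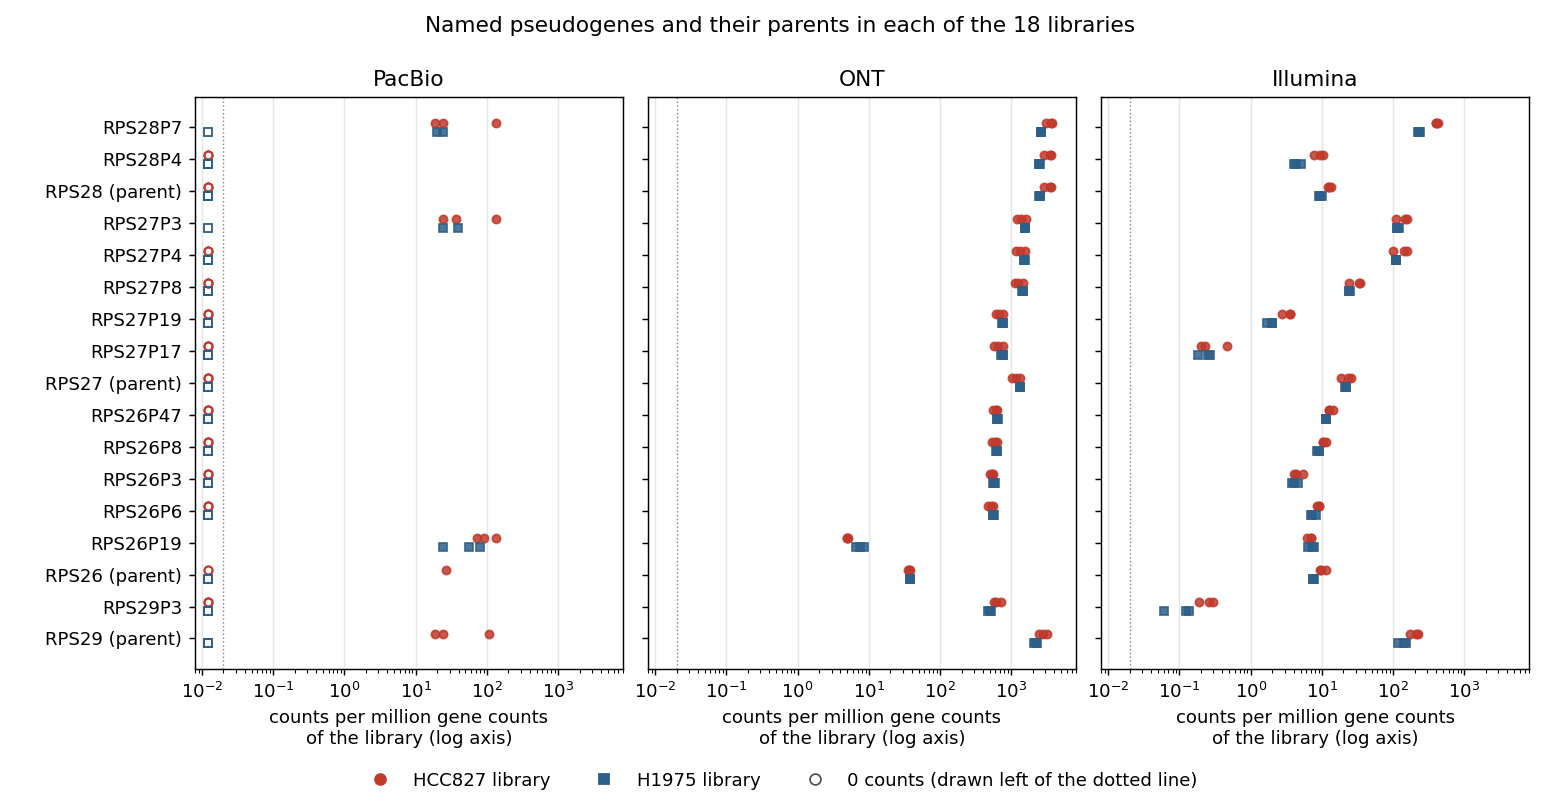
CPM (log axis) of 13 named pseudogenes and their 4 parents, grouped by parent, in PacBio, ONT and Illumina libraries; each point is 1 library, circles HCC827 and squares H1975, and open symbols left of the dotted line are 0 counts. In ONT most pseudogenes lie beside or above their parent, while in Illumina RPS27P17 and RPS29P3 lie far below theirs and RPS28P7 far above its own.

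RPS28P7 had the most counts. ONT gave 425938, 353178 and 277495 counts in the HCC827 libraries, against 239205, 210359 and 215811 in the H1975 libraries. Illumina gave 14702, 4210 and 13808 counts in HCC827 and 8416, 9001 and 7806 in H1975, the lowest in the shallow HCC827 library. RPS28 itself, which encodes one of the smallest proteins of the subunit, had nearly the same ONT counts as its copy, with 400569, 333693 and 261496 in HCC827 and 230498, 200549 and 205051 in H1975. In Illumina RPS28 had 490, 123 and 436 counts in HCC827 and 373, 374 and 305 in H1975. In every Illumina library the copy thus held more counts than its parent.

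RPS28P4, 1 base away from RPS28P7, followed the ONT counts of the parent but not the Illumina counts of its twin. ONT gave 407401, 337170 and 265922 counts in HCC827 and 229018, 201514 and 206613 in H1975. Illumina gave 348, 104 and 268 in HCC827 and 162, 163 and 168 in H1975, below the parent in each library.

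RPS27P3 and RPS27P4 resembled each other on both platforms. RPS27P3 had 184379, 111950 and 123244 ONT counts in HCC827 and 145800, 124966 and 128061 in H1975, with 5316, 1112 and 5355 Illumina counts in HCC827 and 4445, 4561 and 3805 in H1975. RPS27P4 had 180275, 109485 and 120201 ONT counts in HCC827 and 142197, 121872 and 125114 in H1975, with 5283, 997 and 5425 Illumina counts in HCC827 and 4080, 4424 and 3637 in H1975. RPS27, a zinc finger protein of the subunit, had 156225, 94637 and 104848 ONT counts in HCC827 and 124072, 107848 and 107858 in H1975. Its Illumina counts were 867, 185 and 880 in HCC827 and 798, 850 and 727 in H1975, so that both copies exceeded the parent in every library of both platforms.

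RPS26P47 had the most counts among the copies of RPS26, a protein that lines the mRNA exit channel of the subunit. ONT gave 73861, 57174 and 50508 counts in HCC827 and 58341, 52907 and 52535 in H1975, and Illumina gave 470, 126 and 494 in HCC827 and 422, 457 and 378 in H1975. RPS26 had 4311, 3488 and 3224 ONT counts in HCC827 and 3467, 3051 and 3115 in H1975, with 345, 113 and 334 Illumina counts in HCC827 and 273, 299 and 254 in H1975. RPS26P47 was above RPS26 in all 12 libraries, by far more in ONT.

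RPS29P3 was the reverse case. It had 84245, 57030 and 51852 ONT counts in HCC827 and 47342, 38237 and 41050 in H1975, but 7, 3 and 9 Illumina counts in HCC827 and 5, 5 and 2 in H1975. RPS29, another zinc-binding protein of the subunit, had 367217, 256689 and 226540 ONT counts in HCC827 and 210001, 170146 and 180882 in H1975, and 8154, 1720 and 7268 Illumina counts in HCC827 and 4316, 5791 and 5088 in H1975. The parent stayed above RPS29P3 in all 12 libraries.

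Counts went with sequence identity across the 103 pseudogenes, where low identity stands for missing or extra length as well as for base changes. Over the 10 with identity of 99% or more the median of the mean counts per library was 56889 in ONT and 348 in Illumina, and over the 9 from 97% to 99% it was 25940 in ONT and 29 in Illumina. Among the 22 from 90% to 95% it was 185 in ONT and 0.417 in Illumina, and among the 56 below 90% it was 0.167 in ONT and 0 in Illumina. Spearman's rho of identity with mean counts was 0.810 in ONT and 0.656 in Illumina over the 103 pseudogenes, given as a description, since the points share libraries and parents.

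**Figure D2:**
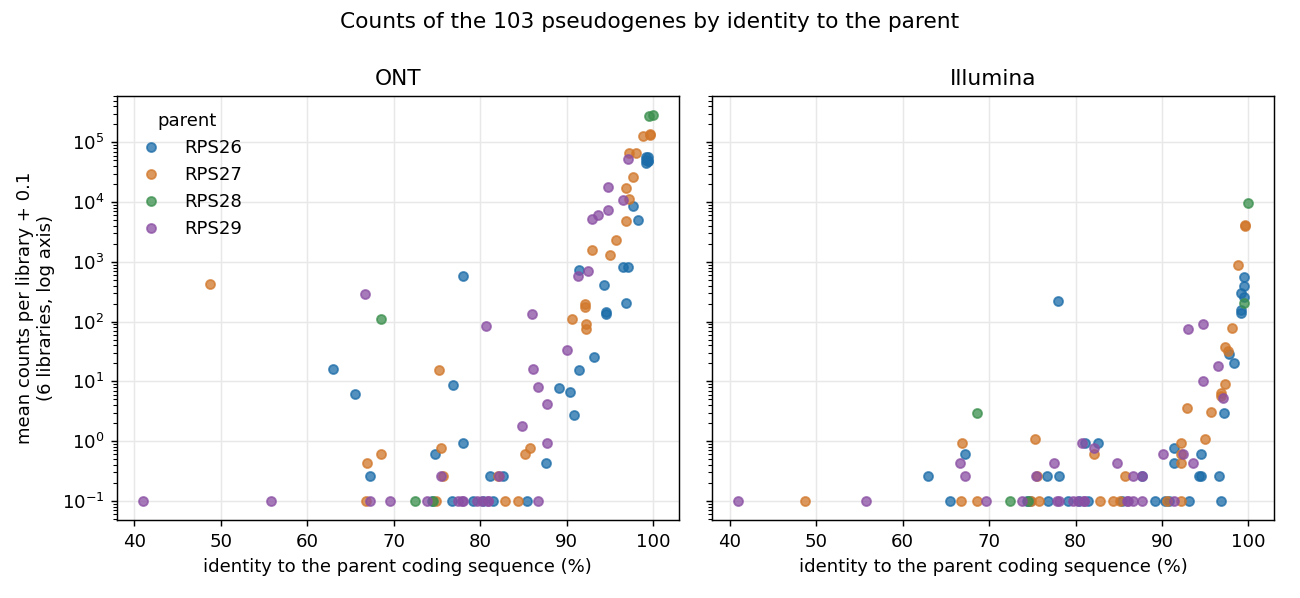
Mean counts per library plus 0.1 (log axis, 6 libraries) of the 103 pseudogenes against identity to the parent's coding sequence in percent, ONT left and Illumina right, coloured by parent. The 10 pseudogenes at 99% or more lie at or above 45001 mean counts in ONT and at or above 140 in Illumina, and most below 90% lie near 0 on both platforms.

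ONT was compared with Illumina in 1 fit of the 12 libraries, with both lines weighted equally and scaling by trimmed mean of M values (edgeR quasi-likelihood test, Benjamini-Hochberg adjustment over all genes tested). All 53 pseudogenes that passed the filter on low counts were higher in ONT, against 44.2% of all 29395 genes tested, and 50 of the 103 did not pass. Within the single platforms 54 passed in ONT and 20 in Illumina, so most of the 53 entered through their ONT counts, and the count is a description. The log2 fold had a median of 8.23 over these 53 (range 1.32 to 14.31), against 0.12 over all genes tested and 5.98 over the 787 other ribosomal protein pseudogenes tested, of which 763 were higher and 8 lower. With the 8 pseudogenes at 0 in Illumina set to their bound the median was 7.94. Scaling by total counts moved the median of all genes to −1.37, and relative to it the pseudogene median was 8.11 with the first scaling and 8.33 with total counts.

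The parents were also higher in ONT, by log2 folds of 9.51 ± 0.10 for RPS28, 7.31 ± 0.13 for RPS27, 5.39 ± 0.11 for RPS29 and 3.59 ± 0.09 for RPS26 (± SE). Copies stood on both sides of their parent. RPS28P4 had 10.31 ± 0.12 and RPS28P7 4.79 ± 0.08, while RPS27P17 had 12.79 ± 0.17 and RPS27P3 5.03 ± 0.12. RPS26P47 had 7.15 ± 0.10 and RPS29P3 13.24 ± 0.16. The smallest fold among the 53 was that of RPS26P19, with 1.32 ± 0.10 (adjusted p = 3.80e-10), and it was −0.18 with total count scaling.

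The counts of the copies relative to their parent need no scaling between libraries. These are ratios of counts and not per length, since a parent's annotated exons are longer than its copies (2119 bases for RPS28, 210 for RPS28P7). Summed over a family, ONT gave 92.9 ± 4.49 pseudogene counts for each RPS26 count in HCC827 and 96.3 ± 1.67 in H1975 (mean ± SD, n = 3 each). Illumina gave 7.12 ± 0.75 in HCC827 and 8.09 ± 0.28 in H1975. For RPS29 the order of the platforms was the same at a lower level, with ONT at 0.434 ± 0.0027 in HCC827 and 0.435 ± 0.0053 in H1975 and Illumina at 0.0451 ± 0.0088 in HCC827 and 0.0334 ± 0.0076 in H1975.

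For RPS27 and RPS28 the order turned round. ONT gave 5.15 ± 0.038 pseudogene counts per RPS27 count in HCC827 and 5.11 ± 0.086 in H1975, against 13.6 ± 0.50 in HCC827 and 11.8 ± 0.28 in H1975 with Illumina. For RPS28, ONT gave 2.08 ± 0.0062 in HCC827 and 2.05 ± 0.015 in H1975, and Illumina gave 32.7 ± 2.21 in HCC827 and 24.6 ± 1.57 in H1975. In all 4 families the ranges of the ONT and the Illumina ratios did not overlap, and how often this holds for other genes was not computed.

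**Figure D3:**
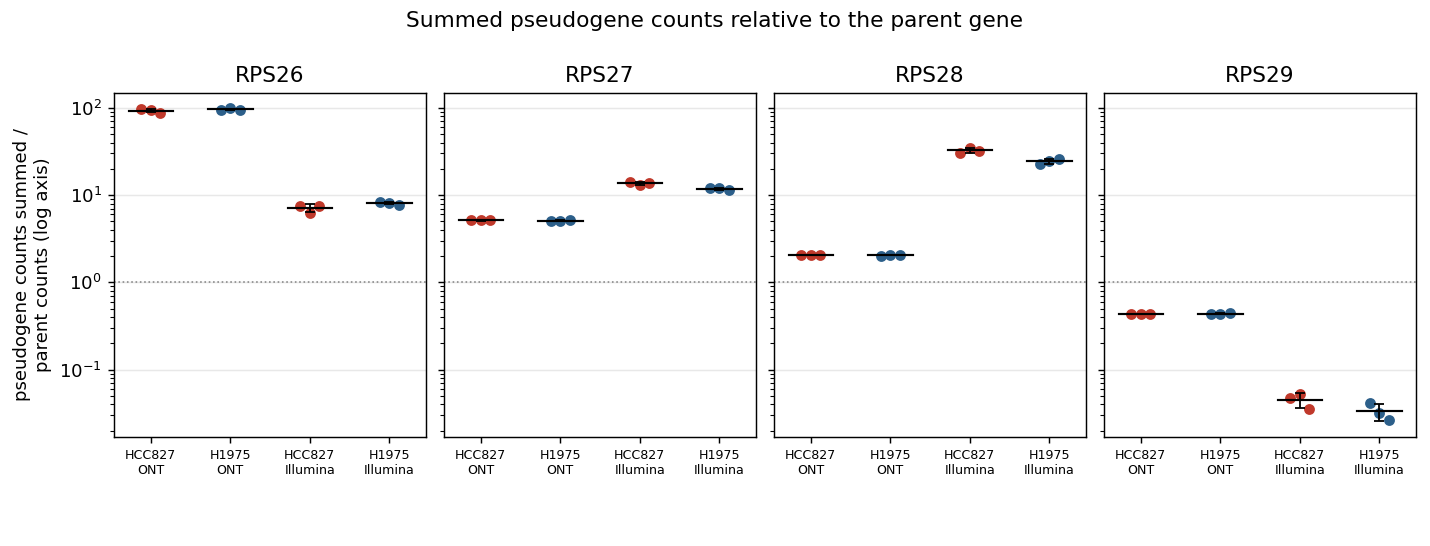
Pseudogene counts summed over each family and divided by the parent's counts (log axis) in ONT and Illumina libraries of HCC827 and H1975; points are libraries, the bar is the mean and whiskers are ± 1 SD (n = 3), and the dotted line marks equal counts. ONT ratios lie above Illumina ratios for RPS26 and RPS29 and below them for RPS27 and RPS28.

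Within a family the copies did not all move alike between the platforms. RPS28P7 had 1.06 ± 0.0025 counts per RPS28 count in ONT HCC827 and 1.05 ± 0.0077 in ONT H1975, but 31.97 ± 2.13 in Illumina HCC827 and 24.1 ± 1.52 in Illumina H1975. RPS28P4 had 1.01 ± 0.0038 in ONT HCC827 and 1.00 ± 0.0074 in ONT H1975, and 0.723 ± 0.116 in Illumina HCC827 and 0.474 ± 0.067 in Illumina H1975. Near-equal counts of parent and copies were thus seen for RPS28 in ONT, with ratios of either copy to RPS28 between 0.994 and 1.06 in the 6 libraries. Per base of annotated exon the ONT ratio of RPS28P7 was 10.7 in HCC827 and 10.6 in H1975, and the Illumina ratio was 323 in HCC827 and 243 in H1975.

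In the RPS27 family RPS27P3 had 1.18 ± 0.0038 counts per parent count in ONT HCC827 and 1.17 ± 0.014 in ONT H1975, against 6.08 ± 0.061 and 5.39 ± 0.17 in Illumina HCC827 and H1975. RPS27P8 was near its parent on both platforms, at 1.09 ± 0.0041 in ONT HCC827 and 1.09 ± 0.015 in ONT H1975 and 1.35 ± 0.065 in Illumina HCC827 and 1.13 ± 0.040 in Illumina H1975. RPS27P17, which has 4 base changes and lacks 3 bases, was at 0.565 ± 0.0047 in ONT HCC827 and 0.564 ± 0.014 in ONT H1975 and at 0.0132 ± 0.0056 in Illumina HCC827 and 0.0109 ± 0.0023 in Illumina H1975. RPS26P47 had 16.4 ± 0.73 counts per RPS26 count in ONT HCC827 and 17.01 ± 0.29 in ONT H1975, and 1.32 ± 0.19 in Illumina HCC827 and 1.52 ± 0.030 in Illumina H1975. The other abundant RPS26 copies, RPS26P8, RPS26P3 and RPS26P6, had mean ONT ratios from 14.0 to 16.7 and mean Illumina ratios from 0.458 to 1.19.

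The change in the ratio was taken within each of the 6 RNA samples as ONT minus Illumina of log2((copy + 0.5)/(parent + 0.5)). All 21 pseudogenes with a mean of 10 Illumina counts also reached that mean in ONT. Of these 21, the ratio was higher in ONT in 6 of 6 RNA samples for 16 and lower in 6 of 6 for 4. An exact two-sided sign-flip permutation test gives p = 0.03125 for each of these, the smallest it can give with 6 samples. The share for ratios of other genes was not computed. In the fit of ONT over Illumina 83.4% of all genes tested were called in either direction. That is a share of single genes and not of ratios. Higher in ONT were 8 RPS26 copies, 3 RPS27 copies, 4 RPS29 copies and RPS28P4 (0.79 ± 0.37, SD, n = 6), with RPS26P47 at 3.56 ± 0.18 and RPS27P19 at 2.35 ± 0.48. Lower in ONT were RPS28P7 (−4.71 ± 0.23), RPS27P3 (−2.28 ± 0.097), RPS27P4 (−2.25 ± 0.13) and RPS26P19 (−2.27 ± 0.13), and the exception was RPS27P8 (−0.18 ± 0.15), whose sign differed between samples.

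A further 33 pseudogenes reached a mean of 10 counts in ONT but not in Illumina, so a higher ratio in ONT is in part fixed by how they were chosen, and their values are a description. Among them the ratio was higher in ONT in all 6 samples for 21, RPS29P3 included (7.73 ± 0.69 from 2 to 9 Illumina counts per library). It was lower in all 6 for RPS28P5, RPS27P23 and RPS27P27, which had at most 5 counts in any Illumina library. RPS27P27 had 0 counts in 4 Illumina libraries and RPS27P23 in 1, so that their direction there comes from the pseudocount. With a pseudocount of 1 the lower direction in all 6 samples was found for 11 of the 54 pseudogenes instead of 7.

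The cell line difference was fitted within each platform on 3 HCC827 and 3 H1975 libraries. In ONT 42 of the 54 pseudogenes tested were higher in HCC827 (background 31.1% of all genes tested) and 1, RPS27P27, was lower (background 31.6%). In Illumina 19 of the 20 tested were higher (background 36.1%) and 0 were lower. The exception was RPS26P19, with a log2 fold of 0.26 ± 0.12 (adjusted p = 0.0721). Of the other ribosomal protein pseudogenes tested, 636 of 819 were higher and 27 lower in ONT and 266 of 342 were higher and 18 lower in Illumina. Of the 34 small subunit genes tested, 28 were higher and 2 lower in ONT and 30 were higher and 1 lower in Illumina. The median log2 fold was 0.46 in ONT and 0.76 in Illumina for the copies of RPS26 to RPS29, against 0.97 in ONT and 1.17 in Illumina for the other ribosomal protein pseudogenes and 0.76 in ONT and 0.89 in Illumina for the small subunit genes. These differences between the lists were not tested.

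These counts depended on the scaling and, in ONT, on single libraries. With total count scaling 8 of 54 were higher and 2 lower in ONT, against 4333 higher and 13787 lower of all 27366 genes tested. In Illumina that scaling gave 10 of 20 higher, against 6503 of all 25711 genes tested. The median of all genes moved with it from −0.02 to −0.57 in ONT and from −0.04 to −0.38 in Illumina. Relative to the median of all genes the pseudogene median was 0.48 in ONT and 0.80 in Illumina, and with total counts 0.47 in ONT and 0.80 in Illumina. Without HCC827 replicate 1 the ONT count of higher pseudogenes was 25, without H1975 replicates 1, 2 or 3 it was 24, 23 or 23, and without HCC827 replicate 2 it was 49. Without the shallow Illumina library the Illumina count was 19. RPS27P27 had 7, 7 and 10 ONT counts in HCC827 and 28, 21 and 19 in H1975, a log2 fold of −1.15 ± 0.37 (adjusted p = 0.0179), which DESeq2 did not call and which was lost without HCC827 replicate 1 or H1975 replicate 1.

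In ONT most copies lay near the fold of their parent. The folds of the RPS26 and RPS27 copies overlapped, as did those of the RPS28 and RPS29 copies. RPS28 had a log2 fold of 0.96 ± 0.11 (adjusted p = 2.43e-05), and RPS28P7 and RPS28P4 both had 0.98 ± 0.11. RPS29 had 0.91 ± 0.13, and its 13 tested copies, all higher in HCC827, ranged from 0.70 to 1.04. RPS26 had 0.52 ± 0.13 (adjusted p = 0.00414), and 14 of its 19 tested copies were higher, with a median of 0.45 (range −0.05 to 0.62). RPS27 had 0.38 ± 0.15 (adjusted p = 0.0403), and 12 of its 19 tested copies were higher, with a median of 0.40 (range −1.15 to 0.59). With total count scaling the RPS28 and RPS29 copies stayed above 0, while 18 of 19 in the RPS26 family and 18 of 19 in the RPS27 family were below 0, as were RPS26 (−0.04) and RPS27 (−0.18) themselves. Without any 1 of the H1975 libraries, or without HCC827 replicate 1 or 3, RPS27 and its named copies RPS27P3, RPS27P4, RPS27P8, RPS27P17 and RPS27P19 were no longer called, with folds between 0.26 and 0.41 and adjusted p up to 0.157.

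**Figure D4:**
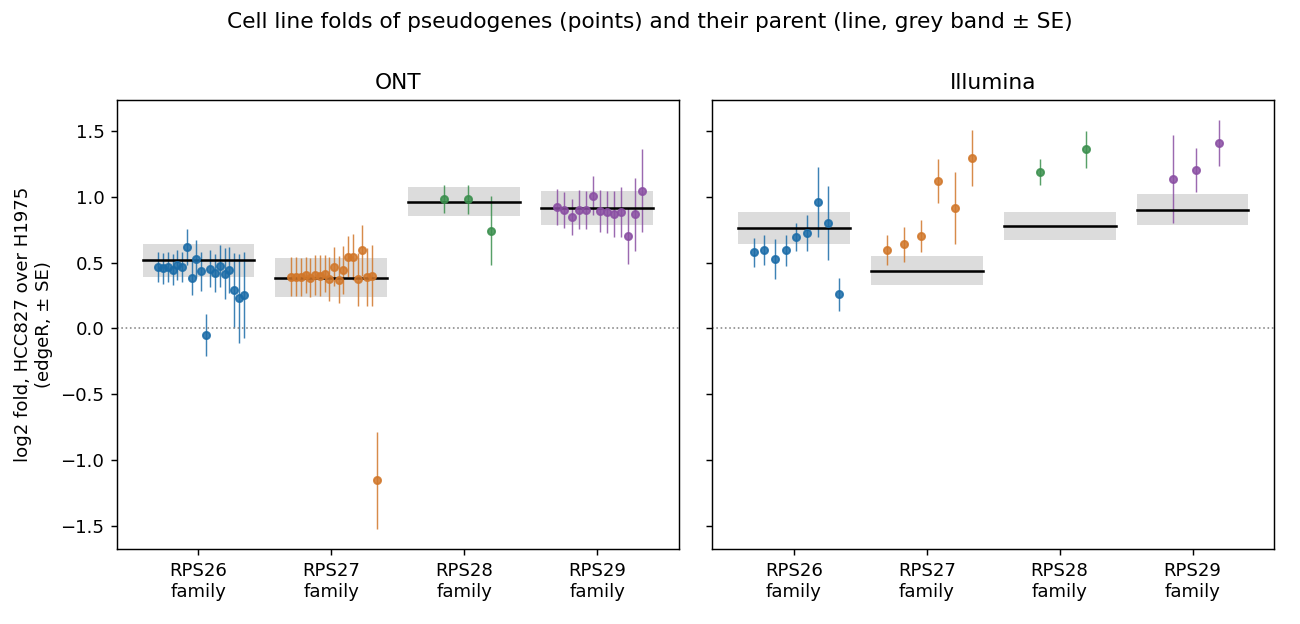
Log2 folds of HCC827 over H1975 (edgeR, ± SE) of the tested pseudogenes (points) by family, with the parent's fold as a black line and its ± SE as a grey band, ONT left and Illumina right. ONT points lie near the parent's line, with RPS27P27 and RPS26P19 farthest from it, and Illumina points of the RPS27, RPS28 and RPS29 families lie above it; with total count scaling the ONT folds of RPS26 and RPS27 and nearly all their copies fall below 0.

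The difference between a copy's line fold and its parent's was read directly from the ratio of their counts. In ONT the log2 ratio differed between HCC827 and H1975 by less than 0.1 for 41 of the 54 pseudogenes, by less than 0.25 for 49 and by less than 0.5 for 52. The median size of the difference was 0.0466. The exceptions beyond 0.5, named here for that, were RPS27P27 (−1.48) and RPS26P19 (−0.56). Their identity to the parent is 75.3% and 78.0%, and 0 of their windows of 75 bases occur in its mRNA. Parents were assigned by symbol, and whether another gene is closer to these copies was not tested. In Illumina the difference was under 0.1 for 3 of 21 pseudogenes, under 0.25 for 9 and under 0.5 for 14, with a median size of 0.291. An exact permutation test of 3 against 3 cannot go below p = 0.1, so none of these differences could pass 0.05.

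The Illumina differences had a direction in 3 families. Copies of RPS27, RPS28 and RPS29 were all raised further in HCC827 than their parent, by medians of 0.39 (6 copies), 0.51 (2 copies) and 0.45 (4 copies) on the log2 ratio scale. The copies of a family share the parent's count in each library, so they are not independent. Among the RPS29 copies the smallest exact permutation p was 0.2. The largest difference there, RPS29P11 with 1.16, came from 37, 2 and 8 counts in HCC827 and 6, 5 and 2 in H1975. The 9 copies of RPS26 had a median of −0.18. RPS28P7 had a line fold of 1.19 ± 0.10 and RPS28P4 one of 1.36 ± 0.14, against 0.78 ± 0.10 for RPS28. Its ratio to RPS28 ranged from 30.0 to 34.2 in HCC827 and from 22.6 to 25.6 in H1975, which do not overlap (exact permutation p = 0.1, the smallest possible). RPS27P3 had a line fold of 0.60 ± 0.12 and RPS27P19 one of 1.12 ± 0.16, against 0.44 ± 0.11 for RPS27. RPS26P47 had 0.58 ± 0.11 and RPS26P3 0.53 ± 0.15, against 0.76 ± 0.12 for RPS26, and RPS26P3 was not called without HCC827 replicate 3 (0.33, adjusted p = 0.0685).

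The ratios varied less between ONT libraries than between Illumina libraries. The coefficient of variation of the ratio over the 6 ONT libraries had a median of 5.20% over 54 pseudogenes (range 0.842% to 54.3%), against 13.3% for their CPM. In Illumina it was 21.0% over 21 pseudogenes, against 22.7% for CPM. The Illumina copies and parents mostly had far fewer counts than in ONT, and the part of counting error in this spread was not tested.

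Whether the line difference itself differed between ONT and Illumina was tested with the interaction term. edgeR called 0 of the 53 pseudogenes, against 7.16% of all genes tested, and DESeq2 also called 0. Most of the 53 entered through their ONT counts: 20 passed the filter within Illumina, and 8 of the 53 were at 0 there. For pseudogenes with few Illumina counts a call was hardly possible, so these counts do not show that the line folds are equal. At an unadjusted p below 0.05 there were 3, RPS27P19, RPS27P29 and RPS29P11, named from that count. With total count scaling 4 were called, RPS28P7 (−0.40), RPS28P4 (−0.59), RPS27P19 (−0.94) and RPS27P29 (−1.09), each with the smaller line fold in ONT. RPS29P11 was called without the filter on low counts and without HCC827 replicate 3, and RPS27P29 without HCC827 replicate 1.

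PacBio gave almost no counts of these pseudogenes. Its 6 libraries gave 41 counts for 3 pseudogenes among 277695 gene counts, and 100 pseudogenes had 0, which allows up to 10.8 CPM each over the 6 libraries (3 counts, counting error only). PacBio counts were taken from clustered sequences, and how many reads lie behind 1 count was not analysed here. RPS28P7 had 1, 1 and 5 counts in HCC827 and 1, 0 and 1 in H1975, and RPS27P3 had 2, 1 and 5 in HCC827 and 1, 0 and 2 in H1975. Of the parents RPS29 had 1, 1 and 4 counts in HCC827 and 0 in all 3 H1975 libraries, RPS26 had 1 in total, and RPS27 and RPS28 had 0. Relative to all gene counts, PacBio RPS28P7 was at 0.0105 of its ONT level (95% exact interval 0.0048 to 0.0199) and RPS27P3 at 0.0270 (0.0135 to 0.0483). RPS28P4 was at least 274-fold lower in PacBio than in ONT, and RPS27P4 at least 133-fold lower than in ONT and at least 11.5-fold lower than in Illumina.

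In the fit of PacBio over ONT, 39 of the 50 pseudogenes tested were lower (background 33.1%) and 1, RPS26P19, was higher (background 13.7%). In the fit of PacBio over Illumina, 10 of 15 were lower (background 40.3%) and 1, again RPS26P19, was higher (background 8.99%). With total count scaling 6 of 15 were lower in PacBio over Illumina, against 2994 of all 19189 genes tested. In PacBio over ONT that scaling gave 28 of 50 lower, against 2480 of all 24440 genes tested. Of these pseudogenes, 47 of the 50 and 12 of the 15 had 0 PacBio counts. They entered through the other platform, so a lower level in PacBio is in part fixed by the filter. The counts are therefore a description. Only 26 of the 47 and 4 of the 12 lay above the PacBio floor of 10.8 CPM on the other platform. Folds of these fits depend on the scaling, since the median of all genes was −4.44 in PacBio over ONT and −2.95 with total counts. With each close PacBio pair summed and counted as 1 sample, 43 of 54 were lower and 0 higher in PacBio over ONT, and 9 of 20 were lower and 1 higher in PacBio over Illumina. Low PacBio levels were not particular to these copies. Of the 34 small subunit genes tested, 34 were lower in PacBio over ONT and 33 in PacBio over Illumina. Of the other ribosomal protein pseudogenes tested, 494 of 721 were lower in PacBio over ONT and 147 of 197 in PacBio over Illumina. No pseudogene had enough counts to be tested between the lines in PacBio.

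RPS26P19 (chr2:127846736-127847084, minus strand) stood apart from the other copies on every platform. It overlaps an exon of POLR2D, a subunit of RNA polymerase II, on the same strand, and its identity to RPS26 is 78.0%. Its ONT counts were 574, 455 and 462 in HCC827 and 614, 701 and 615 in H1975, and POLR2D had 876, 724 and 620 in HCC827 and 948, 1001 and 887 in H1975. In Illumina RPS26P19 had 260, 71 and 211 counts in HCC827 and 233, 310 and 245 in H1975, and POLR2D had 1228, 281 and 955 in HCC827 and 1376, 1564 and 1251 in H1975. In PacBio both genes had the same counts in each library, 5, 3 and 5 in HCC827 and 1, 3 and 4 in H1975.

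RPS26P19 counts were 67.6 ± 6.1% of POLR2D counts in ONT HCC827 and 68.0 ± 2.9% in ONT H1975, and 22.8 ± 2.1% in Illumina HCC827 and 18.8 ± 1.6% in Illumina H1975. Between the lines RPS26P19 had a log2 fold of −0.05 ± 0.16 in ONT (adjusted p = 0.795) and POLR2D −0.04 ± 0.14 (adjusted p = 0.827), neither called. In Illumina the line fold was 0.26 ± 0.12 for RPS26P19 and 0.0018 ± 0.090 for POLR2D (adjusted p = 0.986), again neither called. ONT over Illumina gave 1.32 ± 0.10 for RPS26P19 and −0.40 ± 0.08 for POLR2D (adjusted p = 0.000183). The line fold of RPS26P19 within ONT (HCC827 over H1975) was 0.05 without replicate 2 of either line and −0.61 with total count scaling. PacBio over Illumina gave 2.34 ± 0.38 for RPS26P19 (adjusted p = 6.79e-06) and 0.06 ± 0.29 for POLR2D. PacBio over ONT gave 0.98 ± 0.32 for RPS26P19 (adjusted p = 0.0170), which was not called by DESeq2 (0.76), without the filter (0.58), or without replicate 3 of either line (0.48 to 0.80). Whether its counts come from RPS26P19 or POLR2D transcripts cannot be told apart.

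RPS28P5 (chr2:74754670-74754819, minus strand), which overlaps an exon of an unnamed gene on the opposite strand, had 200, 92 and 91 ONT counts in HCC827 and 107, 78 and 97 in H1975. Its log2 fold between the lines was 0.74 ± 0.26 in ONT (adjusted p = 0.0290), and it was not called without HCC827 replicate 1 or any 1 of the H1975 libraries. The parents carry such overlaps too: exons of RPS28 overlap NDUFA7 and KANK3 on the opposite strand, and exons of RPS29 overlap LRR1 on the opposite strand and the pseudogene RPL32P29 on the same strand. The strand setting of the counting could not be read from the labels or headers, so these values may include reads of the overlapping gene.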

How the data were processed

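The deposited values are counts, whole numbers per gene without normalization, 1 file per library. The submitters' processing notes list GRCh38, minimap2 2.17 and featureCounts. The tool used for each platform, the strand setting, the handling of multi-mapping reads and the gene annotation are not stated in those sources. Per the file headers, PacBio counts come from clustered sequences, PacBio HCC827 replicate 3 alone names poly(A), and Illumina HCC827 replicate 3 alone names a repeat.

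Identifiers without version were matched to GENCODE release 44 (60357 of 60617 Illumina and 58207 of 58676 long-read genes). The 76 spike-in sequins were left out and 45 second copies of genes shared by X and Y were added to the first. Tests used edgeR 4.0.16 in R 4.3.3 (filterByExpr, robust quasi-likelihood, scaling by trimmed mean of M values, two-sided), adjusted over all genes tested and called below 0.05. The fits were checked on simulated counts. Copies were aligned to the parent's coding sequence with edlib. A pseudocount of 0.5 was used in ratios. Intervals and floors (3 counts) cover counting error only.

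Named pseudogenes are the 12 with the most counts over all libraries, those with PacBio counts and those that overlap an exon of another gene and reach a mean of 10 counts. Members, lists and tests were chosen with earlier results of these data known. ONT and Illumina libraries of 1 RNA sample are paired by the labels (r of their deviations 0.00237 to 0.216), and a block for RNA sample changed no named call. Alternatives were DESeq2 1.42.0, other scalings, no filter, the block, leaving out each replicate, and, added after seeing the data, summing close PacBio pairs.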

Additional observations from a re-analysis of the deposited data

How the results depend on the processing

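Scaling by total counts had the widest effect. It gave 10 higher pseudogenes in Illumina, 8 higher and 2 lower in ONT, and 6 lower in PacBio over Illumina. Among all genes tested it gave 6503 of 25711 higher in Illumina and 4333 higher and 13787 lower of 27366 in ONT. In PacBio over Illumina 2994 of all 19189 genes were lower with it. It also gave 4 interaction calls among pseudogenes and 3358 among all genes. Under it the ONT line folds of RPS26 (−0.041), RPS26P47 (−0.093), RPS26P8 (−0.10), RPS26P3 (−0.095) and RPS26P6 (−0.11) turned negative, as did those of RPS27 (−0.18), RPS27P3 (−0.18), RPS27P4 (−0.17), RPS27P8 (−0.18), RPS27P17 (−0.18) and RPS27P19 (−0.16). RPS26P19 turned to −0.091 between the lines in Illumina and to −0.18 in ONT over Illumina. The median of all genes moved with them.

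DESeq2 called 0 lower pseudogenes in ONT. Without the filter 1 interaction call was made. PacBio over ONT gave 0 higher pseudogenes with DESeq2, relative log expression factors, no filter or close PacBio pairs summed. A pseudocount of 1 gave 11 pseudogenes with a lower ratio in ONT.

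Leaving out 1 replicate gave 23 to 49 higher and 0 to 1 lower pseudogenes in ONT, 0 to 1 interaction calls among pseudogenes, 1101 to 2765 among all genes (2105 with all libraries), 8 to 9 lower pseudogenes in PacBio over Illumina and 0 to 1 higher in PacBio over ONT. For the ratio to the parent it gave 0 higher and 0 lower, because the exact test with 5 RNA samples cannot go below p = 0.0625. The ONT line fold of RPS26P19 became 0.054 without replicate 2 of HCC827 and 0.049 without replicate 2 of H1975. The same replicate numbers in the lines did not pair their samples (r −0.139 to 0.110 in ONT and Illumina), and the fits with a replicate block kept the direction and side of the threshold of all 57 named values, with 18 and 37 higher pseudogenes in Illumina and ONT. PacBio depth limits every value below 10.8 CPM.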
